A study of Mus musculus with 14 samples.

Results

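The replication-dependent histone genes of the mouse lie packed together in 2 clusters, on chromosomes 13 and 3. Members were the protein-coding genes with a core or linker histone name (older Hist1h and Hist2h names or newer H1, H2ac, H2bc, H3c and H4c names) between 21.7 and 23.7 Mb of chromosome 13 or between 96.2 and 96.3 Mb of chromosome 3 (build mm10). There were 53 of 21887 protein-coding genes, 43 on chromosome 13 and 10 on chromosome 3. By class, 4 encode the linker histone H1, 15 H2A, 15 H2B, 9 H3 and 10 H4. The gene listed by RefSeq as H4bc24 carries the older name Hist1h2br and was counted with H2B. On chromosome 13 the genes form a first run of 23 genes and a second run of 20, with a stretch of 1485 kb between them that holds mostly vomeronasal receptor genes.

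Acetylation of histone H3 at lysine 27 (H3K27ac), which marks enhancers and promoters in use, was profiled in CD11b+ tumour-associated macrophages sorted from T387 glioblastoma xenografts growing in the brains of NSG mice, which lack mature lymphocytes of their own. The question set by the design is how the histone deacetylase inhibitor pracinostat alters this mark in these cells. All mice carried the tumour and received the same solvent mixture by mouth 4 times per week for 3 weeks from day 7. The DMSO vehicle group (3 libraries with H3K27ac antibody) had no drug, and the pracinostat group (4 libraries) had 30 mg/kg, although the text on drug preparation gives 3 mg/kg. The same numbers of libraries, made with normal rabbit IgG, gave the background of the assay. Age and sex of the mice, and which animal gave which library, were not stated in the labels. The p-values therefore cover the spread between libraries, which may be technical. Since cells were sorted as a population, fewer cells with a mark and less of the mark per cell cannot be told apart.

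The deposited files list peak summits (the highest base of each peak), each with a −log10 significance. H3K27ac lists held 208401 to 291042 summits in 6 libraries and 53503 in DMSO replicate 2, which stands apart. IgG lists held 2194 to 18517. All 10 macrophage and microglia marker genes examined had an H3K27ac summit in 6 or 7 of 7 libraries. So had 3 of 8 neutrophil, 3 of 8 lymphocyte, 1 of 9 neuron and glia and 2 of 4 endothelial markers. The share of all protein-coding genes was 46.9%, and the neutrophil, lymphocyte and endothelial counts, each of few genes, lay near it.

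Each nucleosome wraps DNA around a core of H2A, H2B, H3 and H4, and linker histone H1 binds where the DNA enters and leaves. Cells that copy their DNA need these proteins in bulk, and the clustered genes supply them: they are short, have almost no introns, are transcribed mainly in S phase under the coactivator NPAT, and give messenger RNAs that end in a stem-loop bound by SLBP in place of a poly(A) tail. Many H2A and H2B genes face away from each other and share the stretch between their starts as a common promoter. Because the genes arose by repeated duplication, some promoters differ by few bases or none.

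The promoters below show the elements that histone classes do and do not share. Each line gives the 150 bases before the annotated start of the member with the highest mean H3K27ac percentile of its class among those with a RefSeq promoter entry (GRCm38.p6, 49 of 53 members matched), 5′ to 3′ on the gene's strand. Capitals mark the letters TATAAA (as in a TATA box), CCAAT (as in an NF-Y box) and ATTTGCAT (the octamer) on either strand, wherever they lie. In H4c9 the marked TATAAA is near the far end of the stretch, not at the place of a TATA box. The H1 gene is H1f4 at chr13:23622559-23622708 (minus strand), the H2A gene H2ac20 at chr3:96220881-96221030 (minus), the H2B gene H2bc18 at chr3:96269550-96269699 (plus), the H3 gene H3c13 at chr3:96268504-96268653 (plus) and the H4 gene H4c9 at chr13:22041363-22041512 (minus).
H1f4: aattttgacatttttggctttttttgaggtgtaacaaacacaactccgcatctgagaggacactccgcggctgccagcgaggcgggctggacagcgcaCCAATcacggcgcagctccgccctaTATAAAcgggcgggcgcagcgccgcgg
H2ac20: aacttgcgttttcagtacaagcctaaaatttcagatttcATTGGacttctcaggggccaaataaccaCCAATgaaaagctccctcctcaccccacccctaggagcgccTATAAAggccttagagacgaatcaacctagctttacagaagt
H2bc18: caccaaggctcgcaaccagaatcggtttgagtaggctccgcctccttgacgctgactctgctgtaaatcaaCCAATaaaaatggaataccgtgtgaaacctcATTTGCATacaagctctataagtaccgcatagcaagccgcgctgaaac
H3c13: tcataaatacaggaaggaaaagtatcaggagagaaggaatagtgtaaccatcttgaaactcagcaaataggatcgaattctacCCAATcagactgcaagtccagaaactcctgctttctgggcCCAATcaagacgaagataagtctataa
H4c9: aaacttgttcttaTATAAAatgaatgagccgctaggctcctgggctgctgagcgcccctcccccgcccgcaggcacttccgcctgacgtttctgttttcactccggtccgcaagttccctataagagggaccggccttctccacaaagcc

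In the 300-base RefSeq window from 250 bases before to 50 after the start, TATAAA occurred on either strand in 27 of 49 histone promoters (55.1%), against 14.8% of 17492 protein-coding genes with an entry. CCAAT occurred in 42 of 49 (85.7%), against 42.3%. Every H1, H2A, H2B and H3 promoter matched held a CCAAT, whereas 2 of 9 H4 promoters did. The octamer ATTTGCAT occurred in 9 of 49 (18.4%), against 1.90% of all genes, and these were 4 H2A and 5 H2B promoters. H2A and H2B genes that share a promoter have largely the same window, so the same site can count for both. None of the 3 motifs contains another, and a match is a description of the letters, not of a bound factor.

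Most of the histone genes carried H3K27ac in most libraries. A summit lay within 1 kb of a gene end at 37 of 53 members (69.8%) in 6 or 7 of the 7 H3K27ac libraries, against 46.9% of all genes. In all 7 libraries, the short list of DMSO replicate 2 included, the order turned, with 14 members (26.4%) against 34.7% of all genes. By Fisher's exact test per gene (7 H3K27ac against 7 IgG libraries, two-sided, Benjamini-Hochberg over all genes), 43 of 53 members were marked above IgG (81.1%), where the share of all genes so called was 50.2%. A gene with a summit in 7 H3K27ac and no IgG library had an adjusted p of 0.00186 by Fisher's exact test, and one with 5 and none 0.0418. With all 14 lists limited to their 2194 highest summits, no gene was called by Fisher's exact test (lowest adjusted p 0.139, 535 genes at an unadjusted p below 0.05). IgG summits lay at 3 members: at H3c4 in DMSO IgG replicate 1, and at H1f4 and its neighbour H2bc6, which share one summit, in DMSO IgG replicate 3. Members' windows are shorter than those of most genes, with a median of 2.49 kb against 4.00 kb, because the genes are short and the windows round both ends run together. Neighbours also share windows, so that the 53 genes occupy 33 separate stretches, of which 27 to 29 held a summit in each of 6 H3K27ac libraries and 8 in DMSO replicate 2.

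The 2 clusters differed in how evenly the libraries showed them. On chromosome 13, a summit lay at 74.4, 14.0 and 86.0% of the 43 members in DMSO replicates 1 to 3 and at 86.0, 86.0, 88.4 and 86.0% in pracinostat replicates 1 to 4. On chromosome 3 a summit lay at 9, 8 and all 10 of the 10 members in DMSO and at 9, 9, 10 and 9 in pracinostat libraries. All protein-coding genes ran from 38.8% in DMSO replicate 2 to 61.6% in DMSO replicate 3. DMSO replicate 2 was the lowest library at both clusters, by a wide margin on chromosome 13 and by 1 gene on chromosome 3. Over both clusters the share was 64.2 ± 33.2% (SD, n = 3) in DMSO libraries, 83.0% in the mean of the other 2 DMSO libraries, and 87.7 ± 1.89% (n = 4) in pracinostat libraries, so the groups overlapped. The low library also had the shortest list. With every list limited to its 30000 highest summits, 4.65% of the chromosome 13 members had one in that library. There it was 6 of the 10 chromosome 3 members and 31.4% of all genes. Since 65.3% of the summits of that library tie at its lowest score, part of its 30000 was drawn at random among ties. The chromosome 13 members marked in it all stood at that score, so their 4.65% depends on the draw. All 23 members with a summit in 6 of 7 libraries lacked it in DMSO replicate 2.

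**Figure D1:**
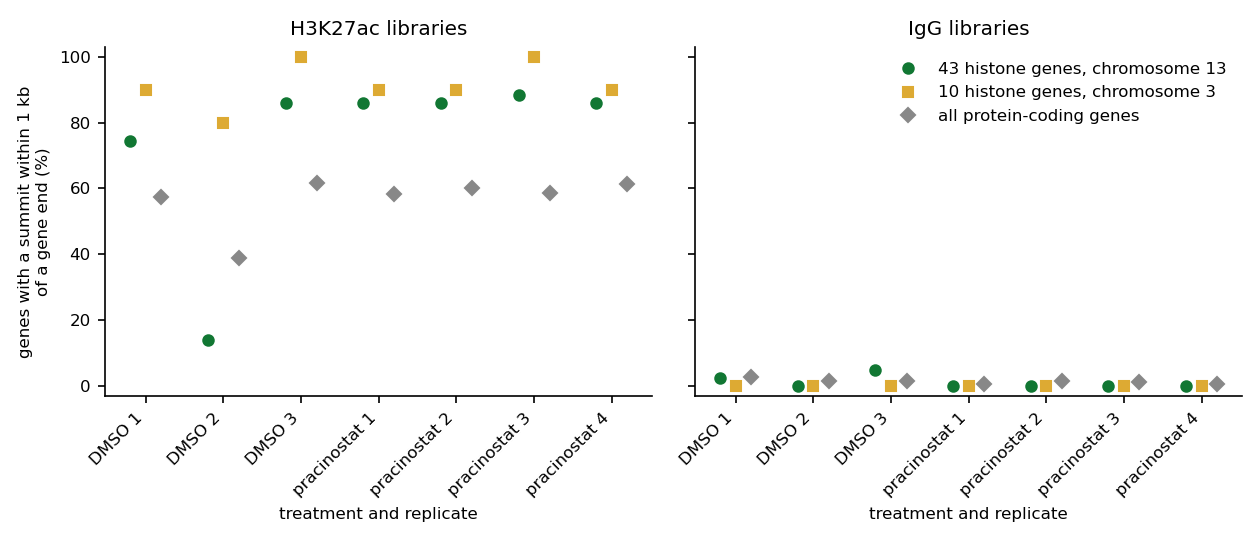
Share of genes with a summit within 1 kb of a gene end (%) in each H3K27ac (left) and IgG (right) library, for the 43 histone genes of chromosome 13, the 10 of chromosome 3 and all protein-coding genes. DMSO replicate 2 is at 14.0% on chromosome 13 and at 80% on chromosome 3, and IgG shares stay at or below 4.65%.

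In each H3K27ac library summits were denser over the histone runs than between them. The first run of chromosome 13 held 12.8, 1.52 and 26.8 summits per 100 kb in DMSO replicates 1 to 3 and 17.1, 24.4, 19.2 and 26.2 in pracinostat replicates 1 to 4. The second run held 20.3, 1.79 and 32.3, and 30.5, 27.5, 34.1 and 35.8. The chromosome 3 cluster, 50.3 kb long, was denser than either run taken whole, with 59.6, 19.9 and 61.6, and 55.7, 63.6, 65.6 and 59.6 summits per 100 kb. The first run takes in a gap without histone genes. Its block beyond that gap, 8.54 kb long, held 58.6, 23.4 and 105.4, and 58.6, 105.4, 82.0 and 70.3. Between the chromosome 13 runs there were 0.539 to 3.77 summits per 100 kb in the 7 libraries, and 0.172 to 1.03 across the vomeronasal receptor genes, which sense pheromones in the nose. Of 36 such receptor genes in the interval 1 had any H3K27ac summit. In the IgG libraries the histone runs taken whole held at most 0.915 summits per 100 kb, and the vomeronasal receptor stretch 0.0 to 0.602. The 8.54 kb block had 1 summit in pracinostat IgG replicate 2.

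A total of 4 genes of the first chromosome 13 run had no H3K27ac summit in any library, and all 4 sit in copied sequence. These are H2bc23 and H2ac23, which share a promoter, and H2ac24 and H4bc24, which share another 23 kb away. The H4 genes H4c17 and H4c18 lie between these pairs and had summits in 6 and 4 libraries. The 300-base promoter entries of H2bc23 and H4bc24 are identical. The 150 bases before their starts, at chr13:21810200-21810349 (minus strand) and chr13:21833593-21833742 (plus strand), are printed to show this, with CCAAT on either strand in capitals.
H2bc23: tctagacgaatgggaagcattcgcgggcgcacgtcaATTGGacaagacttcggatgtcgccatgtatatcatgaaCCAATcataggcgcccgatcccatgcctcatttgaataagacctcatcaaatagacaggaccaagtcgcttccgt
H4bc24: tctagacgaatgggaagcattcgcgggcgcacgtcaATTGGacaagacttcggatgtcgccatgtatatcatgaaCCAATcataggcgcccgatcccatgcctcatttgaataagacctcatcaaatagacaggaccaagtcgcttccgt

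The match reaches into the partner genes. The promoter of H2ac23 shared 267 and that of H2ac24 233 unbroken identical bases, on either strand, with the copy at the other place. In all, 10 of 49 promoters shared 100 or more identical bases in a row with a histone promoter elsewhere (219 to 300 bases), and in the other 39 the longest shared run was 11 to 72 bases. Of the 10, 4 had a summit in 6 or 7 H3K27ac libraries and 4 in none. Of the 39, 29 had one in 6 or 7 and none was without. The remaining copied promoters belong to the H4 genes H4c17 and H4c18 (285 shared bases, summits in 6 and 4 libraries), the chromosome 3 H3 genes H3c15 and H3c14 (231 bases, 7 and 2 libraries) and the chromosome 3 H2A genes H2ac19 and H2ac18 (219 bases, 7 and 6 libraries). Reads of 150 bases, the length the protocol gives, fit inside such runs. How reads that match several places were treated was not stated, and its part in the missing summits was not tested.

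**Figure D2:**
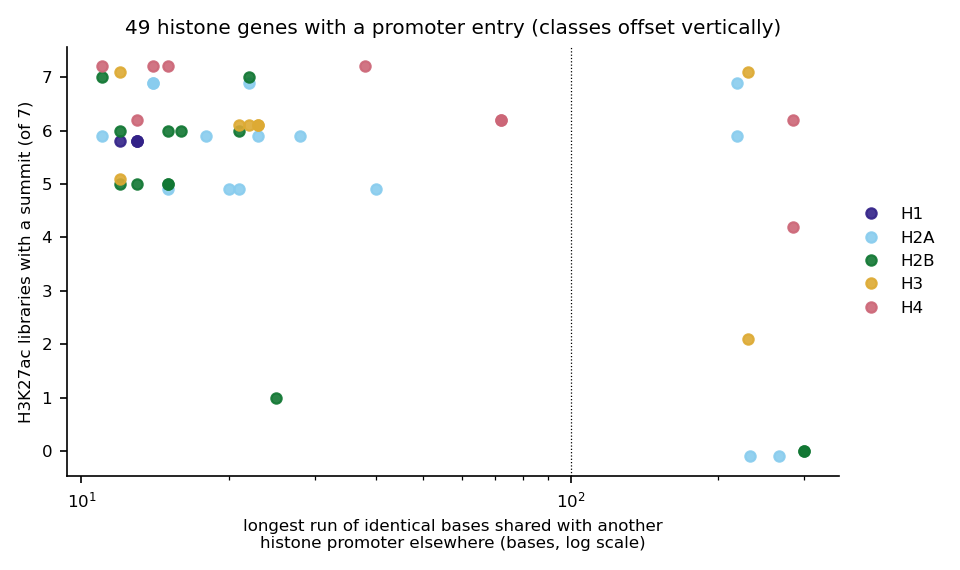
Number of H3K27ac libraries with a summit (of 7, classes offset vertically) against the longest run of identical bases shared with another histone promoter that does not overlap it (log scale), for 49 histone genes. The 4 genes at 0 libraries all lie right of the dotted line at 100 bases.

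To compare levels, each gene took the score of the highest summit near its ends, and genes with a summit in at least 3 H3K27ac libraries (13494 genes, 47 of them histone genes) were ranked within each library. A percentile of 0 is the lowest rank and 100 the highest, and genes without a summit tie at the bottom. In DMSO replicate 2 that tie covers 37.9% of ranked genes, which puts every unmarked gene at 19.0, and genes at its lowest score tie at 47.3. The histone genes held middling ranks: on chromosome 13 their mean percentile was 36.9, 23.4 and 49.95 in DMSO replicates 1 to 3 and 46.5, 48.8, 56.9 and 54.7 in pracinostat replicates 1 to 4. On chromosome 3 it was 62.8, 63.8 and 41.0, and 69.4, 54.9, 60.0 and 69.5. None of the 53 members was among the genes marked by the 2194 strongest summits of any library, where 5.56 to 7.32% of all genes were. Of the 6 members that were not ranked, 4 are the unmarked copies, and H2bc7 and H3c14 had a summit in 1 and 2 libraries.

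The H2A genes at one end of the chromosome 3 cluster stood highest. H2ac20, which encodes H2A, had percentiles of 66.4, 84.6 and 56.9 in DMSO replicates 1 to 3 and 72.9, 70.6, 76.7 and 82.3 in pracinostat replicates 1 to 4, with a mean of 72.9. H2ac21 beside it, also an H2A gene, had a mean of 72.2, and the adjoining H2B gene H2bc21 one of 70.1. These 3 genes lie within 3.85 kb and mostly take their rank from the same summit, and DMSO replicate 2 was the highest of the 7 libraries at each. At the other end of the cluster, the H3 gene H3c13 and the H2B gene H2bc18 had the same percentiles in each library, 67.5, 47.3 and 36.5 in DMSO and 65.7, 76.7, 57.2 and 86.2 in pracinostat libraries. The H4 gene H4c14 had a mean of 52.2, the H2A gene H2ac18 one of 50.3, and H3c15 and H2ac19 (H3 and H2A) shared one of 49.5.

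On chromosome 13 the highest was H4c9, an H4 gene, at 48.2, 47.3 and 52.4 in DMSO and 88.7, 68.5, 76.7 and 39.3 in pracinostat libraries. Pracinostat replicate 4 was the lowest of all 7 libraries there, so the groups overlapped. The lowest ranked members were H4c18, with a mean of 20.3, and H1f6, with 21.5, followed by H4c17 (29.2), H3c11 (33.7) and H2ac8 (34.1). H4c18 and H4c17 are the copied H4 pair described above. H1f6 encodes the linker histone of the testis, and its percentiles were 16.4, 19.0 and 12.0 in DMSO and 17.6, 22.4, 54.7 and 8.51 in pracinostat libraries. The other linker histone genes, H1f3, H1f4 and H1f5, encode somatic H1 subtypes and had means of 39.6, 53.9 and 50.9. H1f6 was below each of these 3 in 5 of 7 libraries. It was above them in pracinostat replicate 3, and in DMSO replicate 2 all 4 tied without a summit.

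**Figure D3:**
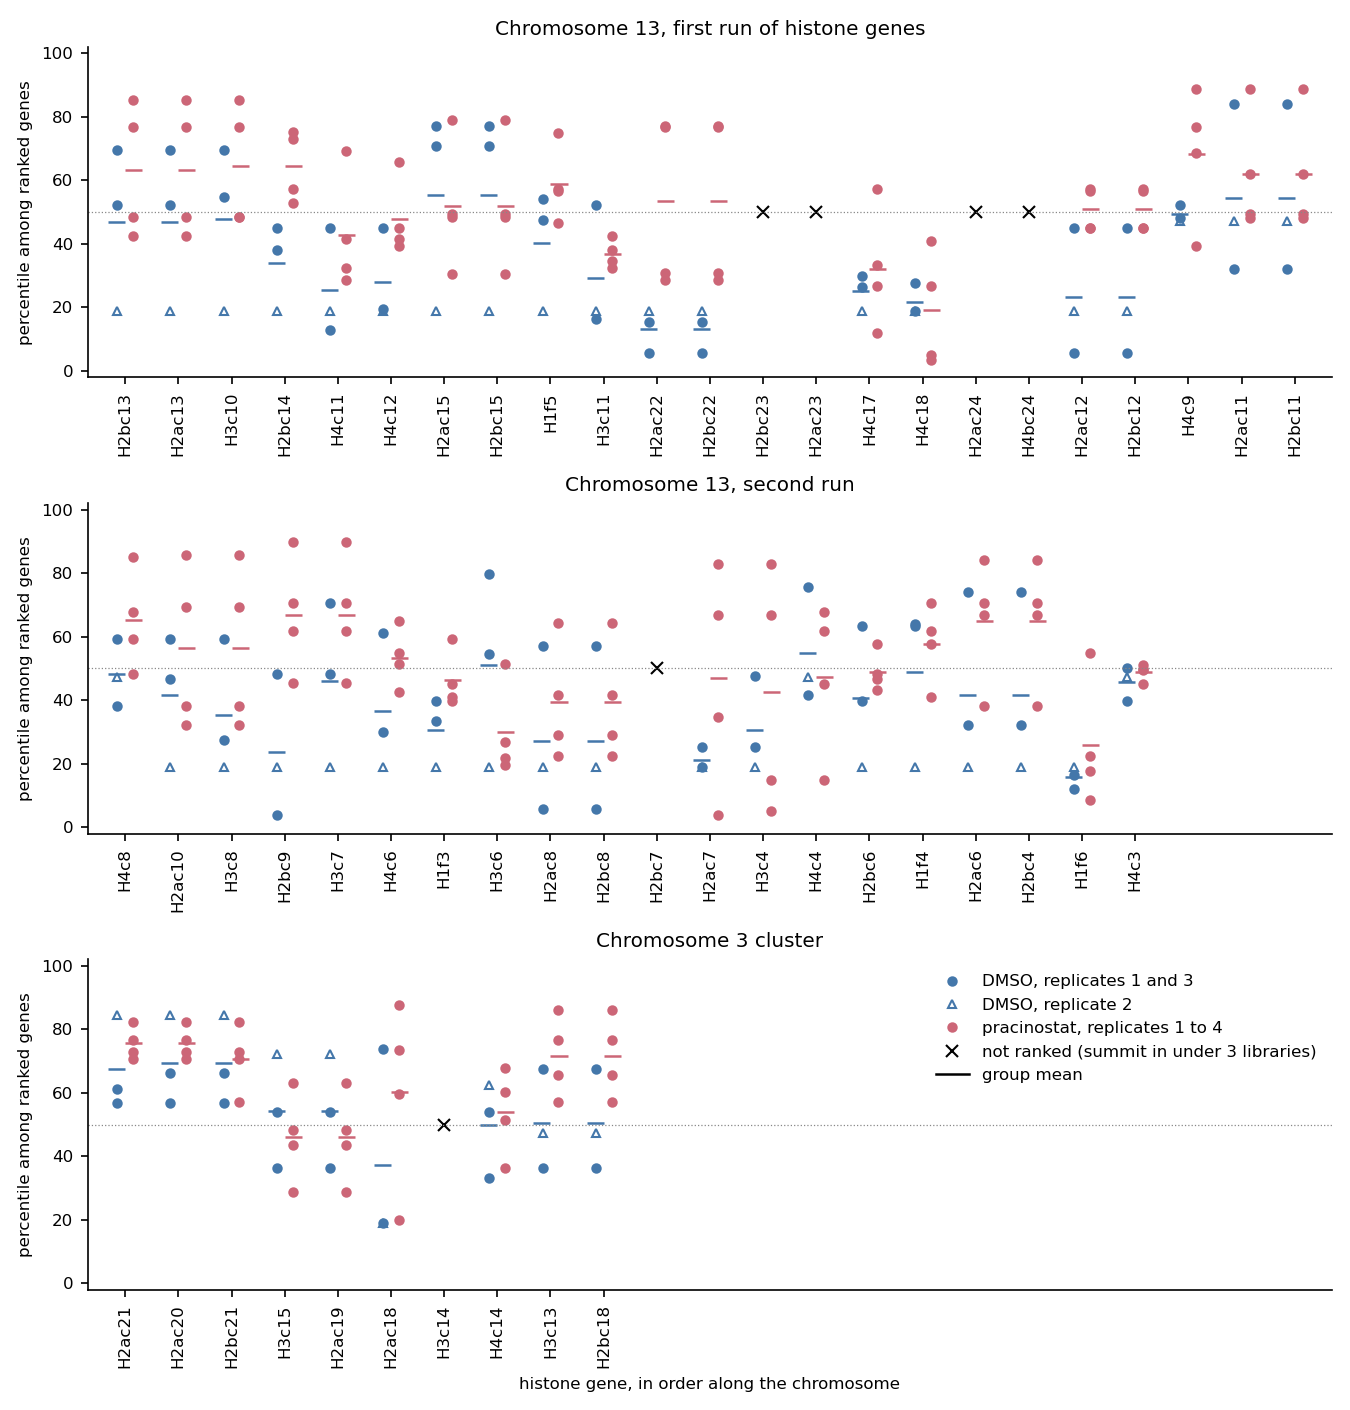
Within-library percentile of the highest H3K27ac summit at each histone gene, in order along chromosome 13 (top and middle) and chromosome 3 (bottom), with group means as bars. Crosses stand for genes without a rank, open triangles for DMSO replicate 2, which lies at 19.0 for most chromosome 13 genes and above the other DMSO libraries at H2ac20 and H2ac21.

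By class, mean percentiles of ranked members were 33.9 ± 13.1 for H1, 42.6 ± 7.42 for H2A, 40.1 ± 10.9 for H2B, 43.1 ± 12.1 for H3 and 38.5 ± 4.59 for H4 in DMSO libraries (SD, n = 3). In pracinostat libraries they were 47.2 ± 1.28, 57.4 ± 8.62, 59.0 ± 4.73, 51.8 ± 3.65 and 47.9 ± 6.81 (n = 4). The classes lay within their spread in DMSO libraries. In pracinostat libraries H2B and H2A had the highest means and H4 and H1 the lowest, but the order of the classes varied between libraries. In pracinostat replicate 1, H3 (46.5) was below H1 (48.8). In replicate 2, H3 (54.6) was above H2A (47.7), and in replicate 3, H4 (58.1) was above H3 (52.9). Among the H2A and H2B genes with a promoter entry, 9 pairs stand head to head with 164 to 268 bases between their starts, H2ac11 and H2bc11 among them. Genes without an entry were not paired. One of these, H2bc21, stood at 57.2 in pracinostat replicate 3, where its neighbour H2ac20 stood at 76.7. Wherever both partners of the 9 pairs had a summit, the same one was the highest for both. There the assay as deposited does not tell their ranks apart. Neither partner had a summit in the pairs H2bc23 with H2ac23 and H2ac24 with H4bc24. In the pair H2bc7 and H2ac7, H2bc7 had a summit in 1 library and H2ac7 in 5.

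Of the summits within 1 kb of a start, some places held smaller shares at histone genes than at all genes. These were 100 to 300 bases inside the gene and a stretch upstream. Counted per start, some libraries were not lower there. Leaving out DMSO replicate 2, which had few, 10.1% of the summits within 1 kb of a start (7.53 to 13.5% over 6 libraries) fell in the 100 bases before it and 9.99% (7.14 to 14.0%) in the 100 bases after it, against 9.27 and 7.56% for all genes, whose ranges overlapped these. From 100 to 200 bases inside the gene the share was 3.73% (1.04 to 5.48%), below the 6.69 to 8.68% of all genes in the same libraries, and the ranges did not overlap. From 200 to 300 bases it was 2.96% (0.0 to 4.30%), against 4.54 to 5.22%. Before the start, from 400 to 300 bases upstream, it was 1.96% (1.04 to 4.08%), against 4.33 to 4.92%. Farther out, from 800 to 700 bases upstream, histone genes had more, 6.08% (4.11 to 8.91%), against 3.01 to 3.598%. A share of 7.79% (5.38 to 9.90%) fell at 400 to 500 bases, near the ends of these genes (median length 493 bases), and the range for all genes was 5.01 to 5.41%. Each histone bin rests on 13 summits or fewer per library, neighbours count the same summit, and no test was made.

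**Figure D4:**
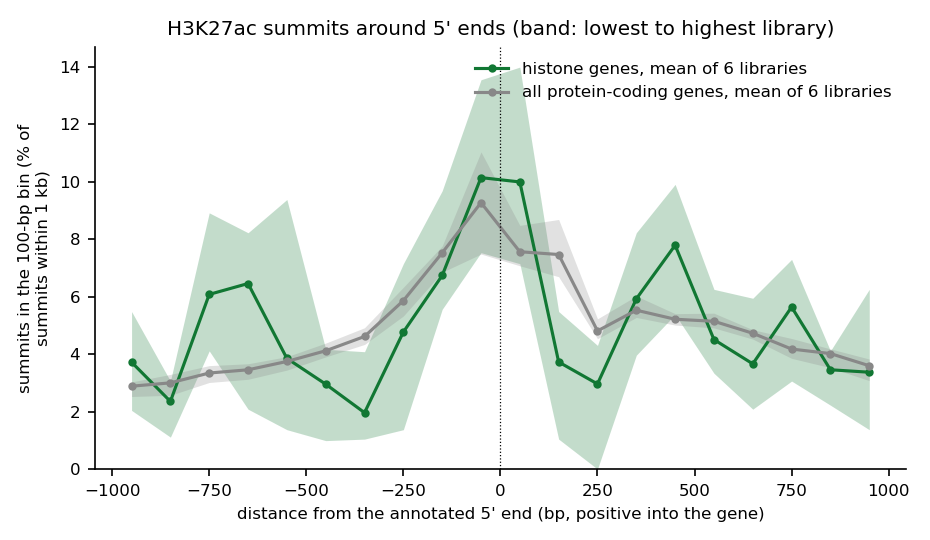
Share of the H3K27ac summits within 1 kb of an annotated 5′ end (%) per 100-bp bin, for histone genes and all protein-coding genes, as the mean of 6 libraries with bands from the lowest to the highest. The histone line dips below the band of all genes from 100 to 300 bases into the gene.

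Pracinostat against DMSO passed the threshold at no histone gene. Percentiles were turned into normal scores, where 1 unit is 1 SD of all ranked genes, and compared with limma over all 13494 ranked genes. At an adjusted p below 0.05, 0 of 47 ranked members were called, and the share of all genes called was 0.0%. Over all genes 832 had an unadjusted p below 0.05. The lowest adjusted p of a member was 0.509 by limma, and the lowest of any gene 0.0709. At an unadjusted p below 0.05, limma put 6 members higher and 0 lower, against 2.74% of all genes higher and 3.42% lower. Every pracinostat library was above every DMSO library at 5 members, and below at none, against 2.88 and 3.79% of all genes. These counts are small and rest on shared windows: the 5 are H2bc14, H2ac22 with H2bc22, and H2ac12 with H2bc12. H2bc14 is named after its values were seen.

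The differences leaned one way without passing. The normal score was higher in pracinostat libraries at 40 of 47 ranked members (85.1%), against 48.6% of all genes. The median difference was 0.47, against −0.01 over all ranked genes. The median score of the histone genes in each library had a pooled SD of 0.33 within the treatment groups. Mean percentiles of the libraries overlapped between the groups at each cluster taken alone. Over both clusters they were 41.8, 31.2 and 48.2 in DMSO and 50.9, 49.99, 57.5 and 57.6 in pracinostat libraries. There the groups did not overlap, with DMSO replicate 3 close under pracinostat replicate 2. Without DMSO replicate 2, which ties most chromosome 13 members at the bottom, 40 of 47 were higher and the median was 0.27. With lists of 30000 summits it was also 0.27, at 34 ranked members. Chromosome 13 members gave a median of 0.47 (33 of 38 higher) and chromosome 3 members 0.16 (7 of 9 higher). Without DMSO replicate 2 these were 0.23 (31 of 38) and 0.40 (9 of 9), so the order of the clusters turned with that 1 library. The lean does not amount to 47 separate values, since neighbours share summits. Macrophage markers leaned the same way, with 9 of 10 higher and a median of 0.35, and neutrophil markers the other, with 1 of 6 higher and a median of −0.20, and the part of either in the histone values was not tested.

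The H2B gene H2bc9 had the smallest p. Its percentiles were 48.2, 19.0 and 3.82 in DMSO replicates 1 to 3 and 89.7, 70.6, 61.7 and 45.4 in pracinostat replicates 1 to 4. The lowest pracinostat library was under the highest DMSO library, so the groups overlapped. The difference was 1.39 ± 0.38 (standard error), with a limma adjusted p of 0.509, and 1.41 ± 0.42 without DMSO replicate 2. Its neighbour H3c7, an H3 gene, shared its values in 6 libraries, had a summit of its own in DMSO replicate 3 at 70.7, and differed by 0.62.

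The head-to-head pair H2ac22 and H2bc22 (H2A and H2B) came next, with percentiles of 5.60, 19.0 and 15.3 in DMSO and 30.8, 28.6, 76.7 and 77.3 in pracinostat libraries. Here the groups did not overlap, and 2 of the 3 DMSO libraries had no summit at all. The difference was 1.27 ± 0.37, with a limma adjusted p of 0.571, and 1.42 ± 0.40 without DMSO replicate 2. A second pair, H2ac12 and H2bc12, had 5.60, 19.0 and 45.0 in DMSO and 45.0, 45.1, 57.2 and 56.7 in pracinostat libraries, a difference of 0.89 ± 0.36 with a limma adjusted p of 0.777. Pracinostat replicate 1 lay 0.03 percentile points above DMSO replicate 3.

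The member with the most negative difference was H3c6, an H3 gene, at 79.7, 19.0 and 54.7 in DMSO and 26.7, 51.4, 21.9 and 19.6 in pracinostat libraries. Its difference was −0.58 ± 0.37 with a limma adjusted p of 0.858, and −1.03 ± 0.37 without DMSO replicate 2, where its unadjusted p was 0.00808 by limma. The others with the smallest p among the lower members were H4c18 (−0.29), H4c4 (−0.24) and the sharing genes H3c15 and H2ac19 (−0.22 each). H4c4, an H4 gene, had 41.5, 47.3 and 75.6 in DMSO and 45.0, 14.9, 67.8 and 61.9 in pracinostat libraries. The linker histone genes differed by 0.43 at H1f3, 0.26 at H1f4, 0.51 at H1f5 and 0.27 at H1f6, each with a standard error between 0.34 and 0.38, and 3 of the 4 were higher without DMSO replicate 2.

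**Figure D5:**
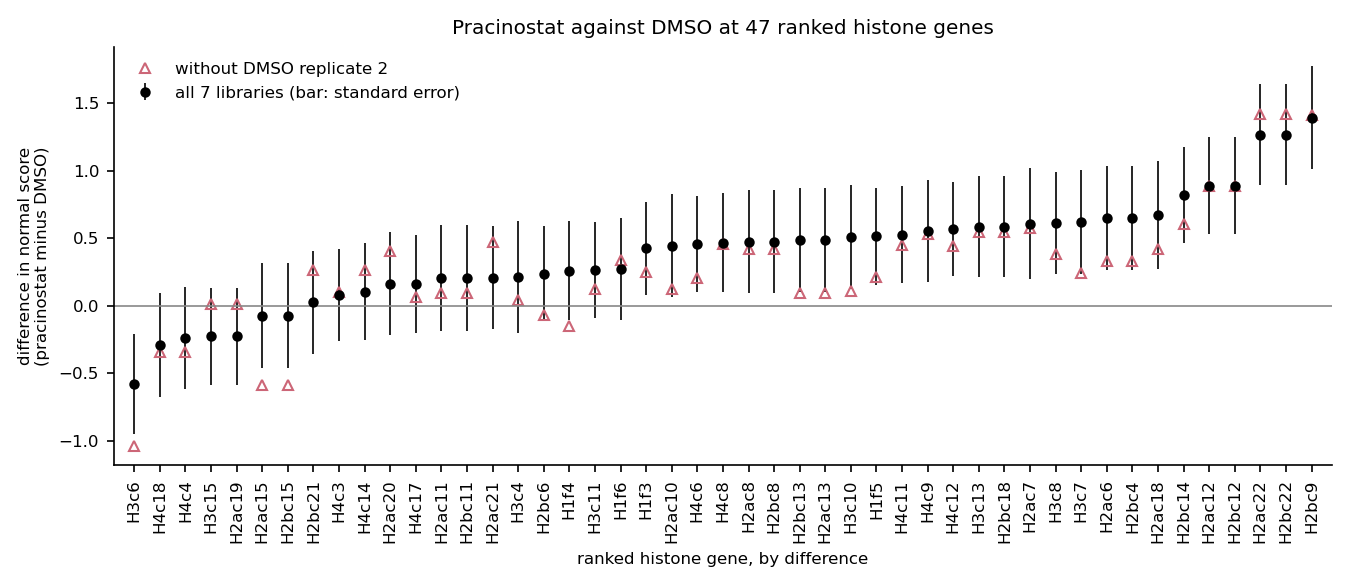
Difference in normal score, pracinostat minus DMSO, at the 47 ranked histone genes with all 7 libraries (points, bars of 1 standard error) and without DMSO replicate 2 (triangles). Of the 47, 40 lie above 0, and none passed the threshold.

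The genes whose products serve these clusters stood at higher mean percentiles than the histone genes, a comparison made without a test. Windows of the histone genes cover less sequence, with a median of 2.49 kb against 4.00 kb for all genes. The part of window length in the ranks was not tested. Of 28 factors of histone transcription and messenger RNA processing, 26 had an H3K27ac summit in 6 or 7 libraries and the 27 ranked had a mean percentile of 65.6 ± 4.73 in DMSO (SD, n = 3) and 67.2 ± 2.00 in pracinostat libraries (n = 4). Nfya, a subunit of the CCAAT-binding factor, had a mean of 95.1 and Cpsf2, a subunit of the 3′ cleavage complex, 93.6. At the low end were Cstf2, another cleavage factor, with 38.4 and Ccne2, a cyclin that acts at the entry to S phase, with 20.2. None of the 27 reached an unadjusted p below 0.05, 13 were higher in pracinostat libraries, and the median difference was −0.01.

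DNA replication and division genes, which dividing cells use in S phase or in the G2 and M phases after it, had 28 of 30 members marked in 6 or 7 libraries. Their mean percentile was 56.7 ± 2.90 in DMSO and 55.3 ± 4.52 in pracinostat libraries, 11 of 29 were higher, and the median difference was −0.13. Gins2 and Cdt1, which help load and start the replicative helicase, stood highest at 89.99 and 89.6, and Gins3 (28.0) and Tyms, the thymidylate synthase (25.3), lowest. Histone chaperones, which carry histones to DNA, had 16 of 17 marked in 6 or 7 libraries, means of 64.3 ± 8.24 and 64.1 ± 2.11, 7 of 17 higher and a median of −0.08. An 18th listed name, Spt2, is an older name of more than 1 gene and was not used, and Mcm2 is in this list and the previous one. Ubn1, of the HIRA complex, stood at 97.6 and Nap1l4 at 94.1, and Atrx (38.4) and Nasp (30.3) were lowest. Nap1l4 (1.03) and Asf1a (0.82) were higher at an unadjusted p below 0.05 by limma, with adjusted p of 0.777 and 0.801. Asf1a, an H3-H4 chaperone, was named after its values were seen.

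Replacement and solitary histone genes, which supply histones outside S phase or stand alone in the genome, gave 14 genes found under the listed names. Of these 11 were marked in 6 or 7 libraries, with means of 51.6 ± 2.32 in DMSO and 55.1 ± 1.80 in pracinostat libraries, 8 of 13 higher and a median of 0.08. H2az1, the H2A.Z variant gene, had a mean of 81.1 and H4f16, a solitary H4 gene, one of 85.2. Macroh2a2, a large variant of H2A, had 9.11 and H1f10, a linker histone gene, 16.9, with a difference of −0.80 ± 0.37 and a limma adjusted p of 0.80. None of the genes of these 4 lists was called.

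Chromosome 13 holds 11 further histone genes just beyond 23.7 Mb, which were not members. Of these 9 had a summit in 6 or 7 libraries. The highest was H1f2, a somatic linker histone gene, at 69.7, 79.2 and 98.3 in DMSO and 78.7, 60.0, 95.5 and 98.2 in pracinostat libraries, above every member on its mean of 82.8. The lowest were H2ac1, with a mean of 13.1, and H2bc1, which had a summit in 2 libraries and no rank. Those 2 encode the H2A and H2B of the testis. Over the 10 ranked, 6 were higher in pracinostat libraries and the median difference was 0.15, or 5 and 0.03 without DMSO replicate 2. Of the 46 other protein-coding genes inside the intervals 5 had a summit in 6 or 7 libraries. Fcgr1, the high-affinity Fc receptor of macrophages, lies 12.7 kb from H2bc18 and had 36.2, 19.0 and 47.5 in DMSO and 90.6, 49.8, 59.5 and 42.4 in pracinostat libraries.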

How the data were processed

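CUT&Tag (antibody-directed cutting and tagging of chromatin by a transposase) gave 14 libraries (7 with H3K27ac antibody, 7 with IgG). The deposited files, 1 for each library, hold 1 summit per line with a −log10 value that the authors' peak caller gave. Bowtie2 and MACS2 2.2.9.1 with build mm10 are named in the submitters' processing notes. Not stated in the labels are whether the value is of p or q, the calling threshold, filters, the use of IgG and sequencing depth. Depth is therefore known only through summit counts. Such values grow with depth, so they were compared as ranks within a library, which cannot show a change common to all sites.

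Genes came from a RefSeq table of GRCm38.p6. The highest summit within 1 kb of either gene end was ranked within each library, and normal scores were compared with limma 3.58.1 (trended, robust) in R 4.3.3, with Benjamini-Hochberg adjustment, after a test on simulated data. Presence was compared with IgG by Fisher's exact test (scipy 1.17.1). The members and lists were chosen with earlier results of these data known. Named were the members with the 5 smallest p per direction, the 5 highest and 5 lowest mean percentiles, no summit or an IgG summit, all H1 and all chromosome 3 genes, and up to 2 highest and 2 lowest of each list. Alternatives changed list length, window, filter, block, rank base and libraries.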

Additional observations from a re-analysis of the deposited data

Results flagged for a closer look

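In pracinostat replicate 3 the share of histone genes with a summit stood apart from the other 3 pracinostat libraries, which were level with each other. It was 90.6% against 86.8% over both clusters, 88.4% against 86.1% on chromosome 13 and 100% against 90% on chromosome 3. The gap is 1 gene on each chromosome, since the other 3 libraries were equal and any gap then takes the whole range. Of 32 groups of 4 libraries examined, 3 were picked out in this way, and chance picks out about 1 in 20.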

How the results depend on the processing

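No histone gene passed the threshold against DMSO under any of the 14 alternatives. Over all genes, where none passed, 1 did with lists of 30000 summits, 2 with 500 bp windows, 2 with genes marked in at least 1 library, and 0 to 4 (the 4 without DMSO replicate 3) when single libraries were left out. With lists of equal length the IgG comparison called 0 genes and 0 histone genes. With the replicate block 0 genes passed (704 at an unadjusted p below 0.05 by limma) and the median histone difference was 0.34 in place of 0.47. Same-numbered libraries deviated with correlations of −0.05, 0.0005 and −0.02, and pairs with different numbers with −0.049 to 0.096. Which animal gave which library was not stated, and so few pairs cannot settle whether the numbers mark a pairing. The median histone difference stayed positive throughout, from 0.27 to 0.57, and DMSO replicate 2 gave the lowest value when left out. With 30000 summits the share of histone genes with a summit was 34.6% in DMSO libraries, in place of 64.2%. In pracinostat libraries it was 51.9% with 30000 summits, 85.4% with 500 bp, 97.2% with 2.5 kb and 85.2% at 5′ ends alone, and in pracinostat IgG libraries 0.472% with 2.5 kb. Mean percentiles with 30000 summits were 33.1 (chromosome 13, pracinostat), 33.7 and 42.8 (chromosome 3, DMSO and pracinostat). On chromosome 13 in pracinostat libraries the mean was 44.6 at 5′ ends alone and 59.8 with genes marked in at least 1 library, where more unmarked genes fill the bottom ranks. Class means moved by more than 1 SD in 28 of 120 values.

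Of 353 values of 26 named genes, 23 changed sign, none from or to a called difference, and the cause was not tested. With ranks among all summits H2ac20 was −0.10, H2ac21 −0.089, H2bc21 −0.15 and H3c4 −0.12. With the replicate block H2bc21 was −0.10 and H3c4 −0.040, and at 5′ ends alone H2bc6 was −0.13. When single libraries were left out, H1f4 ran from −0.15 to 0.47, H1f6 from −0.038 to 0.49, H2ac19 and H3c15 from −0.48 to 0.014, H2ac20 from −0.019 to 0.40, H2bc21 from −0.16 to 0.27, H2bc6 from −0.067 to 0.54, H3c4 from −0.24 to 0.65, H4c14 from −0.12 to 0.27, H4c17 from −0.10 to 0.39 and H4c4 from −0.45 to 0.080. Leaving out DMSO replicate 3 raised the members at an unadjusted p below 0.05 by limma from 6 to 14, of 47 ranked. Over all genes, in either direction, 947 of 12859 had such a p there. Lists of 30000 summits lowered the members to 1, of 34 ranked, where 454 of 8030 genes had such a p. Neighbours share summits, so these members are not separate values. In DMSO replicate 2, the shortest list, 37.9% of ranked genes tied without a summit. Depth in reads was not stated in the labels, so no counting interval was set.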
